A study of Homo sapiens with 10 samples.

Results

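The enzymes and carriers of glucose breakdown were followed in 697 cells, a human line established from a pre-B acute lymphoblastic leukaemia, grown either untreated or in the phorbol ester TPA, an activator of protein kinase C. The genes were chosen by name as the members of glycolysis, the pentose phosphate pathway and the adjoining transport and lactate steps, and all 37 were found among the 27142 genes of the expression table. RNA was sequenced in 4 libraries, 2 from untreated parental 697 cells and 2 from parental 697 cells given TPA at 0.5 µg/ml, and the 6 ChIP-seq and input samples of the series were not analysed here. The labels give the time in TPA only as a range from 0 to 24 h and name no vehicle for the controls. Each gene had 1 value per library in RPKM, a read count scaled to transcript length and library size, so levels of different genes can be set side by side within a library.

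Glycolysis splits glucose into pyruvate in the cytosol. Glucose enters through carriers of the GLUT family, is trapped by hexokinase, committed by phosphofructokinase and converted stepwise to pyruvate, which is either reduced to lactate by lactate dehydrogenase or passed to the mitochondria through the pyruvate dehydrogenase complex. The pentose phosphate pathway branches off after hexokinase and yields NADPH and the ribose of nucleotides. Proliferating leukaemic lymphoblasts are known for a high rate of glycolysis, and several steps have isozymes whose tissue use differs.

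Most enzymes of the pathway were lower with TPA, whereas selected carriers and regulators were higher. A minimum of 1 RPKM, reached in 2 or more libraries, was set for testing a gene, and 33 of the 37 members met it. Of these 33, 24 were called at an adjusted p under 0.05, 6 higher and 18 lower, and 9 were not (limma on log2(RPKM + 1), Benjamini-Hochberg adjusted over all 12159 genes tested). Over all genes tested 58.2% were called, with 28.4% rising and 29.8% falling, against 18.2% and 54.5% of the members. Without control replicate 2 the number that rose was 3, and the number that fell was 17. The median log2 fold change of the members was -0.70, and that of all genes tested was -0.0241. Control and TPA values were fully separated in 26 members, 19 lower and 7 higher with TPA, and over all genes tested 41.0% were lower without overlap and 38.8% higher. Summed over the 37 genes, the level was 8506 and 6707 RPKM in the control libraries and 5251 and 4097 RPKM in the TPA libraries. This was 2.295% and 1.73% of all RPKM in control and 1.503% and 1.05% with TPA, and GAPDH alone made up between 22.6% and 25.1% of the sum. In bulk RNA of this kind, fewer cells of a type and less RNA per cell cannot be told apart.

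**Figure D1:**
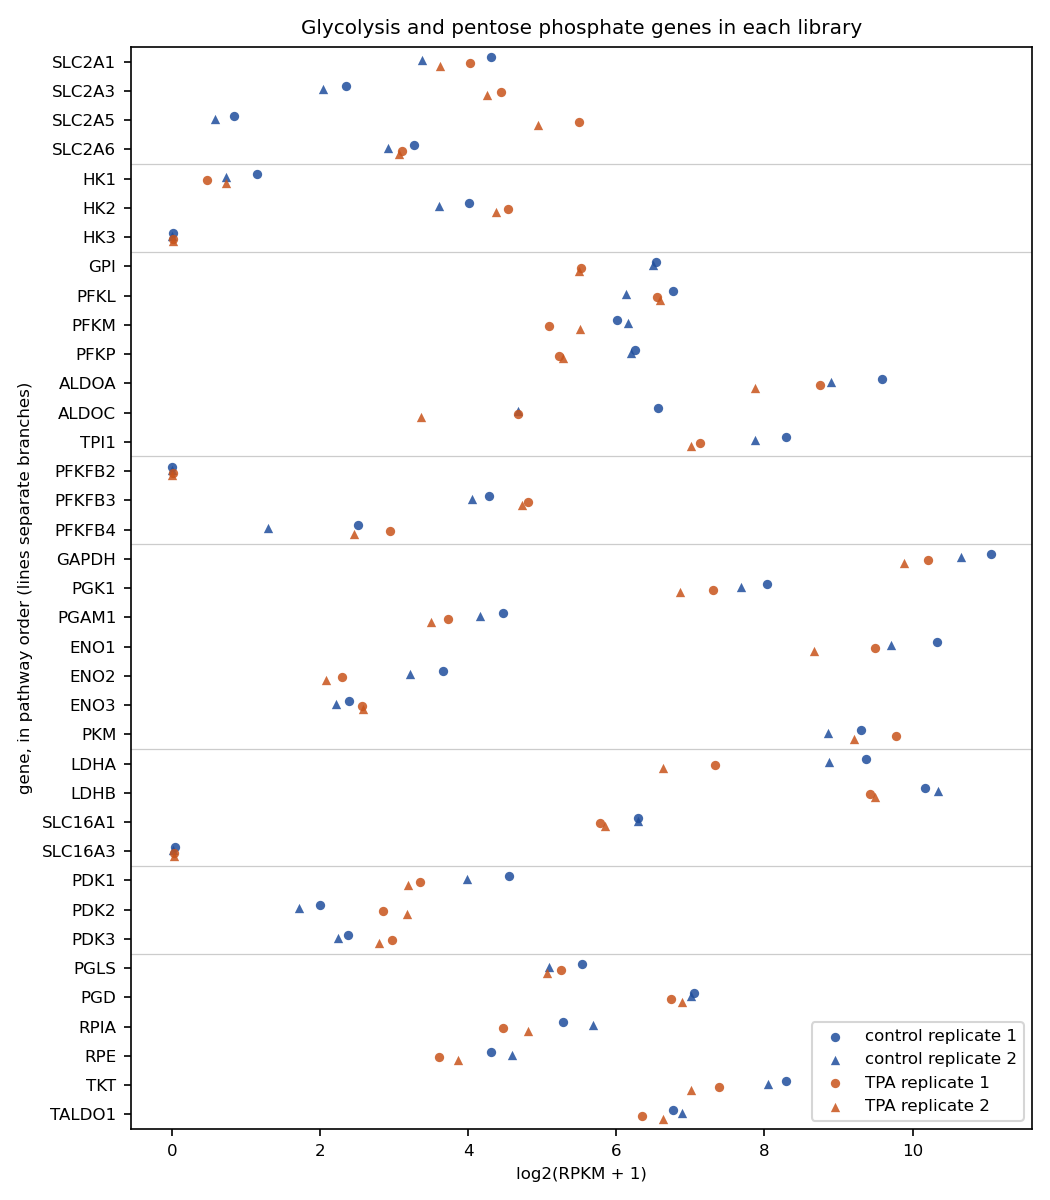
Level of each of the 37 genes in each library, as log2(RPKM + 1) on the horizontal axis, with genes in pathway order and grey lines between branches; blue marks control, orange marks TPA, circles replicate 1 and triangles replicate 2. Orange marks lie to the left of blue for most enzymes between GPI and LDHB and to the right for SLC2A3, SLC2A5 and PDK2, and HK3, PFKFB2 and SLC16A3 sit at the left edge.

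The libraries differed within groups too, and most members were higher in the libraries numbered 1. In 28 of 33 members control replicate 1 exceeded control replicate 2, in 22 TPA replicate 1 exceeded TPA replicate 2, and in 22 both held. Over all genes tested these shares were 38.9%, 26.8% and 16.2%, against 84.8%, 66.7% and 66.7% of the members. The gap was largest for ALDOC, where replicate 1 exceeded replicate 2 by 1.89 among the controls and by 1.302 among the TPA libraries, in units of log2(RPKM + 1). ALDOA, ENO1 and LDHA had gaps between 0.50 and 0.87 in both groups. RPIA, RPE, LDHB, PFKM and TALDO1 were lower in replicate 1 of both groups. Relative depth, read from the steps between low values, was lower in replicate 2 of both groups: with control replicate 1 set to 100, it came to 97.4% for the other control, 97.8% for the first TPA library and 91.3% for the second. The part of depth in the pattern was not tested.

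**Figure D2:**
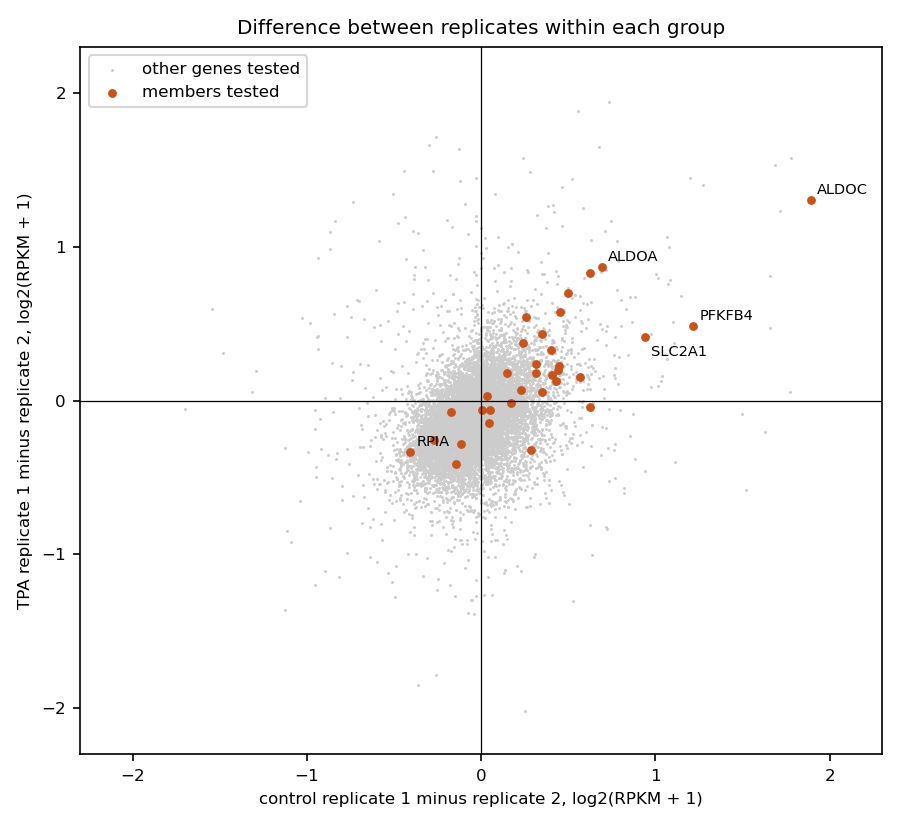
Difference between replicate 1 and replicate 2 on the log2(RPKM + 1) scale, in control on the horizontal axis and with TPA on the vertical axis; orange points are the 33 members tested and grey points the other genes tested, of which 2 lie outside the axes. Of the members, 22 lie above 0 on both axes and ALDOC is the farthest out, at 1.89 and 1.302.

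Markers of the cell were read beside these values. The pre-B genes VPREB1, IGLL1, DNTT, RAG1, RAG2, CD79A, CD79B, PAX5, EBF1 and MME all met the minimum level, and 2 of them rose while 8 fell. No T-cell marker exceeded 0.044 RPKM and no erythroid marker exceeded 0.644 RPKM in any library. Of the 7 myeloid markers, CSF1R rose from 0.548 and 0.706 to 2.93 and 3.66 RPKM and the other 6 stayed at or under 0.286 RPKM. CSF1R met the minimum level only through the TPA libraries, so a difference was bound to appear once it was tested. All 10 genes of S phase and mitosis fell (100%, against 29.8% of all genes tested). Their summed level was 1440 and 1723 RPKM in control and 102 and 116 RPKM with TPA. The part of these 10 genes in the changes of the metabolic genes was not tested.

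Within the 4 GLUT carriers, the summed RNA level shifted toward SLC2A5. SLC2A5, the gene of the fructose carrier GLUT5 (1p36.23), had 0.791 and 0.499 RPKM in control and 44.1 and 29.9 RPKM with TPA, or 0.645 ± 0.207 against 37.0 ± 10.1 RPKM (mean ± SD, n = 2 per group). It had the largest rise of the members, with a log2 fold change of 4.51 (SE 0.197, limma adjusted p = 1.13e-06), and a 57.4-fold ratio of mean RPKM. SLC2A5 was under 1 RPKM in both controls and met the minimum level only through the TPA libraries, so a difference was bound to appear once it was tested. SLC2A3, which encodes the high-affinity glucose carrier GLUT3 (12p13.31), had 4.11 and 3.11 RPKM in control and 20.7 and 18.2 RPKM with TPA. The groups were widely separated, and the log2 fold change was 2.15 (SE 0.155, limma adjusted p = 1.33e-05). SLC2A3 is nearly identical in sequence to SLC2A14, which was listed at no more than 0.038 RPKM, and how reads shared by both were assigned is not given in the sources used here.

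The carriers with the highest control levels did not pass. SLC2A1, the gene of the widespread glucose carrier GLUT1, had 18.9 and 9.37 RPKM in control and 15.3 and 11.3 RPKM with TPA, so that both TPA libraries lay between the control libraries. The 95% confidence interval of its log2 fold change ran from -0.69 to 0.64. SLC2A6, which encodes the lysosomal carrier GLUT6, had 8.60 and 6.53 RPKM in control and 7.65 and 7.34 RPKM with TPA, with an interval from -0.36 to 0.36. As a share of the summed RPKM of these 4 carriers, SLC2A1 went from 58.3% and 48.0% in control to 17.5% and 16.9% with TPA, and SLC2A5 from 2.44% and 2.56% to 50.2% and 44.9%. By RNA level, the first of the 4 carriers was thus SLC2A1 in both control libraries and SLC2A5, the fructose carrier, in both TPA libraries. The summed level of the 4 was 32.4 and 19.5 RPKM in control and 87.8 and 66.7 RPKM with TPA. The share of SLC2A1 thus fell without a called change in its level. For 2 libraries against 2, the exact permutation test of a share gives no two-sided p under 0.33, the value found for SLC2A1, SLC2A3, SLC2A5 and SLC2A6 alike (0.521 adjusted over the 25 isoforms compared in 9 families).

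**Figure D3:**
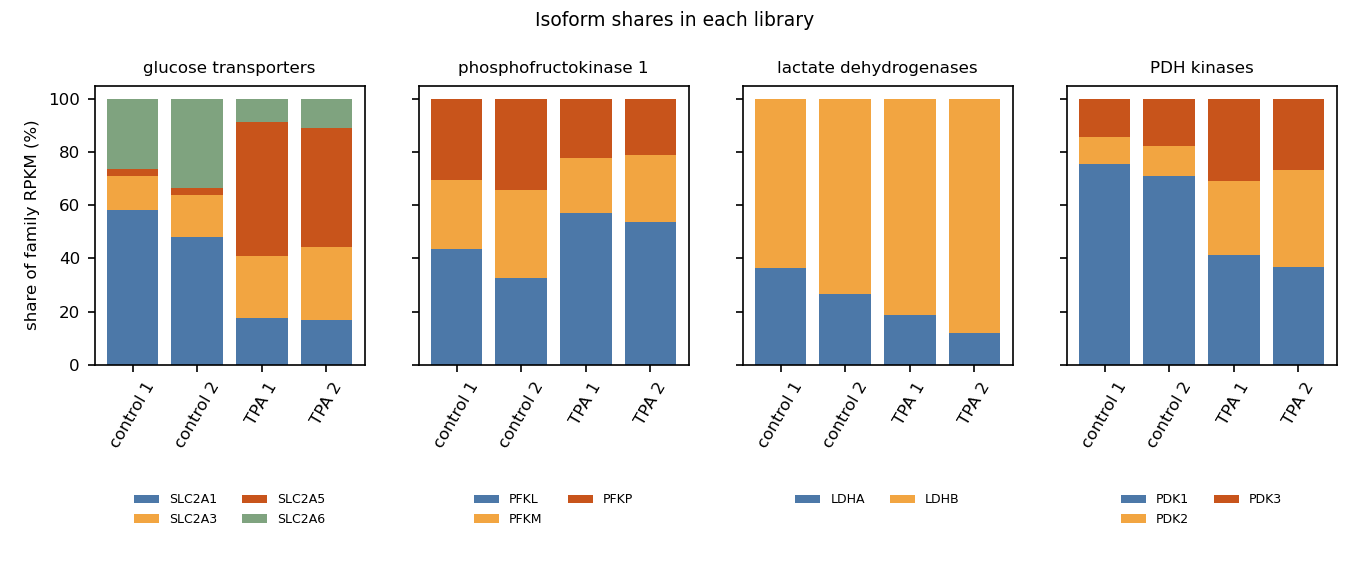
Share of each isoform in the summed RPKM of its family, in percent, stacked to 100 in each of the 4 libraries. Panels show the GLUT carriers, phosphofructokinase, lactate dehydrogenase and the pyruvate dehydrogenase (PDH) kinases. SLC2A5 takes 50.2% and 44.9% of the carrier level with TPA, and LDHA narrows from 36.5% and 26.5% in control to 18.9% and 12.0% with TPA.

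Hexokinase, which phosphorylates glucose and holds it in the cell, was represented almost wholly by HK2. HK2, the inducible isozyme found in growing tissue (2p12), had 15.1 and 11.2 RPKM in control and 22.3 and 19.8 RPKM with TPA. Both TPA libraries exceeded both controls, with a log2 fold change of 0.65 (SE 0.168, limma adjusted p = 0.0110). The call was lost without control replicate 2 (adjusted p = 0.131), without TPA replicate 1 (adjusted p = 0.0630) and with no filter on low values (adjusted p = 0.0539). HK1, the general isozyme, was under the filter with 1.21 and 0.662 RPKM in control and 0.388 and 0.665 RPKM with TPA, and HK3 was listed at 0.008 RPKM or less in every library. HK2 accounted for between 92.6% and 98.3% of the hexokinase level in each library.

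Of the 14 genes from GPI to PKM that encode the trunk enzymes, 11 fell, 0 rose and 3 did not pass in limma. The share that fell was 78.6%, against 29.8% of all genes tested. GPI, which interconverts the phosphates of glucose and fructose, had 91.5 and 89.4 RPKM in control and 45.2 and 44.2 RPKM with TPA. The replicates lay close together in both groups, and the log2 fold change was -1.001 (SE 0.129, limma adjusted p = 3.11e-04). TPI1, the triose phosphate isomerase gene, had 313 and 232 RPKM in control and 140 and 128 RPKM with TPA (log2 fold change -1.01, limma adjusted p = 0.00142).

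Of the 3 subunit genes of phosphofructokinase, the committing enzyme of glycolysis, 2 fell and 1 did not pass, where 29.8% of all genes tested fell. The muscle-type gene PFKM had 63.5 and 70.5 RPKM in control and 33.0 and 44.4 RPKM with TPA, which is a difference of -0.79 in log2(RPKM + 1). The platelet-type gene PFKP had 75.3 and 72.7 RPKM in control and 36.3 and 37.9 RPKM with TPA (log2 fold change -0.98, SE 0.129, limma adjusted p = 3.69e-04). Both were lower without overlap between the groups, as were 41.0% of all genes tested, and PFKM passed as well (limma adjusted p = 0.00463). The liver-type gene PFKL did not pass, with 107 and 69.4 RPKM in control and 92.9 and 95.7 RPKM with TPA and an interval of the log2 fold change from -0.34 to 0.60. Without control replicate 2 its log2 fold change was -0.19. The share of PFKL among the 3 subunit genes was 43.6% and 32.6% in control and 57.3% and 53.8% with TPA (exact permutation p = 0.33, the smallest possible).

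PFKFB enzymes make and remove the allosteric activator of phosphofructokinase. PFKFB3, the isoform with the strongest kinase activity (10p15.1), had 18.4 and 15.6 RPKM in control and 26.9 and 25.6 RPKM with TPA. It rose, with a log2 fold change of 0.60 (SE 0.140, limma adjusted p = 0.00690), but not without control replicate 2 (adjusted p = 0.0972). PFKFB4 had 4.72 and 1.46 RPKM in control and 6.74 and 4.52 RPKM with TPA. Its groups overlapped, since control replicate 1 lay above TPA replicate 2, and it did not pass (log2 fold change 0.80, limma adjusted p = 0.0843). The log2 fold change of PFKFB4 was 1.41 without control replicate 1 (adjusted p = 1.18e-08) and 0.19 without control replicate 2 (adjusted p = 0.545), in fits whose prior degrees of freedom were infinite, and 0.56 without TPA replicate 1 (adjusted p = 0.355). PFKFB2 was listed at 0.006 RPKM in TPA replicate 1 and at 0 in the other libraries.

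Both aldolases, which split the phosphorylated sugar into trioses, varied between replicates. ALDOA, the main isozyme here (16p11.2), had 772 and 477 RPKM in control and 428 and 234 RPKM with TPA. The groups did not overlap, and the log2 fold change was -0.94 (SE 0.308, limma adjusted p = 0.0306), but the gap between the 2 controls exceeded that between the lower control and the higher TPA library. ALDOC, the brain-type isozyme (17q11.2), had 93.3 and 24.4 RPKM in control and 24.5 and 9.34 RPKM with TPA. Its groups met at control replicate 2 and TPA replicate 1, which differed by less than 0.1 RPKM, and it passed narrowly (log2 fold change -1.59, SE 0.592, limma adjusted p = 0.0481). ALDOA was not called without control replicate 1 (-0.59, adjusted p = 0.0567), without TPA replicate 2 (-0.50, adjusted p = 0.198) or in 3 of the settings that kept all libraries (adjusted p from 0.0605 to 0.167). ALDOC was not called in 5 of those settings (adjusted p from 0.0513 to 0.276) or without TPA replicate 2 (-0.94, adjusted p = 0.306), and its log2 fold change was -0.65 without control replicate 1 and -2.54 without control replicate 2.

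In the later steps of glycolysis, where energy is recovered as ATP, 5 of 7 genes fell (71.4%, against 29.8% of all genes tested) and 2 did not pass. GAPDH, which carries out the oxidative step and is widely used as a reference gene, was the member with the highest level, at 2134 and 1618 RPKM in control and 1188 and 946 RPKM with TPA. Every TPA library lay under every control, and its log2 fold change was -0.81 (SE 0.185, limma adjusted p = 0.00625). PGK1, a kinase that forms ATP, went from 262 and 205 to 157 and 116 RPKM, a log2 fold change of -0.78, and PGAM1, the mutase that follows, from 21.2 and 16.9 to 12.3 and 10.3 RPKM, a log2 fold change of -0.70 (limma adjusted p = 0.00872 and 0.00640). ENO1, the enolase gene with the highest level, had 1285 and 833 RPKM in control and 720 and 405 RPKM with TPA (log2 fold change -0.94, limma adjusted p = 0.0247). ENO2, the neuronal-type enolase, had 11.6 and 8.29 RPKM in control and 3.93 and 3.22 RPKM with TPA. ENO2 thus fell by 1.25 on the log2 scale (SE 0.177, limma adjusted p = 5.35e-04), while ENO3, the muscle type, did not pass with 4.26 and 3.66 RPKM in control and 4.94 and 5.01 RPKM with TPA (limma adjusted p = 0.115), its groups being apart. Without control replicate 1 the calls of GAPDH (adjusted p = 0.0568) and PGAM1 (adjusted p = 0.0546) were lost, and without TPA replicate 2 those of PGK1 (adjusted p = 0.0527) and ENO1 (-0.52, adjusted p = 0.159). With no filter on low values GAPDH, PGK1 and ENO1 were not called (adjusted p = 0.114, 0.0614 and 0.159), nor was PGK1 after quantile normalization (adjusted p = 0.0567) or ENO1 with robust variance estimates (adjusted p = 0.0802).

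Like PFKL and ENO3, PKM, the last enzyme of the trunk, was not called. PKM (15q23), which releases pyruvate, had 632 and 462 RPKM in control and 880 and 589 RPKM with TPA. Each TPA library exceeded the control of the same number, but TPA replicate 2 lay under control replicate 1, and the gene did not pass (log2 fold change 0.41, SE 0.226, 95% confidence interval -0.11 to 0.93, limma adjusted p = 0.154). With 1 library left out the log2 fold change of PKM was 0.64 without control replicate 1 (adjusted p = 0.0412) and 0.70 without TPA replicate 2 (adjusted p = 0.0419), but 0.19 without control replicate 2 (adjusted p = 0.610) and 0.12 without TPA replicate 1 (adjusted p = 0.667). The table gives 1 value per gene, so the splice forms M1 and M2 of PKM cannot be told apart. GAPDH, PGK1, ENO1, LDHA, LDHB, TPI1, PGAM1 and PKM have processed pseudogenes of similar sequence, and no source used here says how reads mapping to several places were counted.

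**Figure D4:**
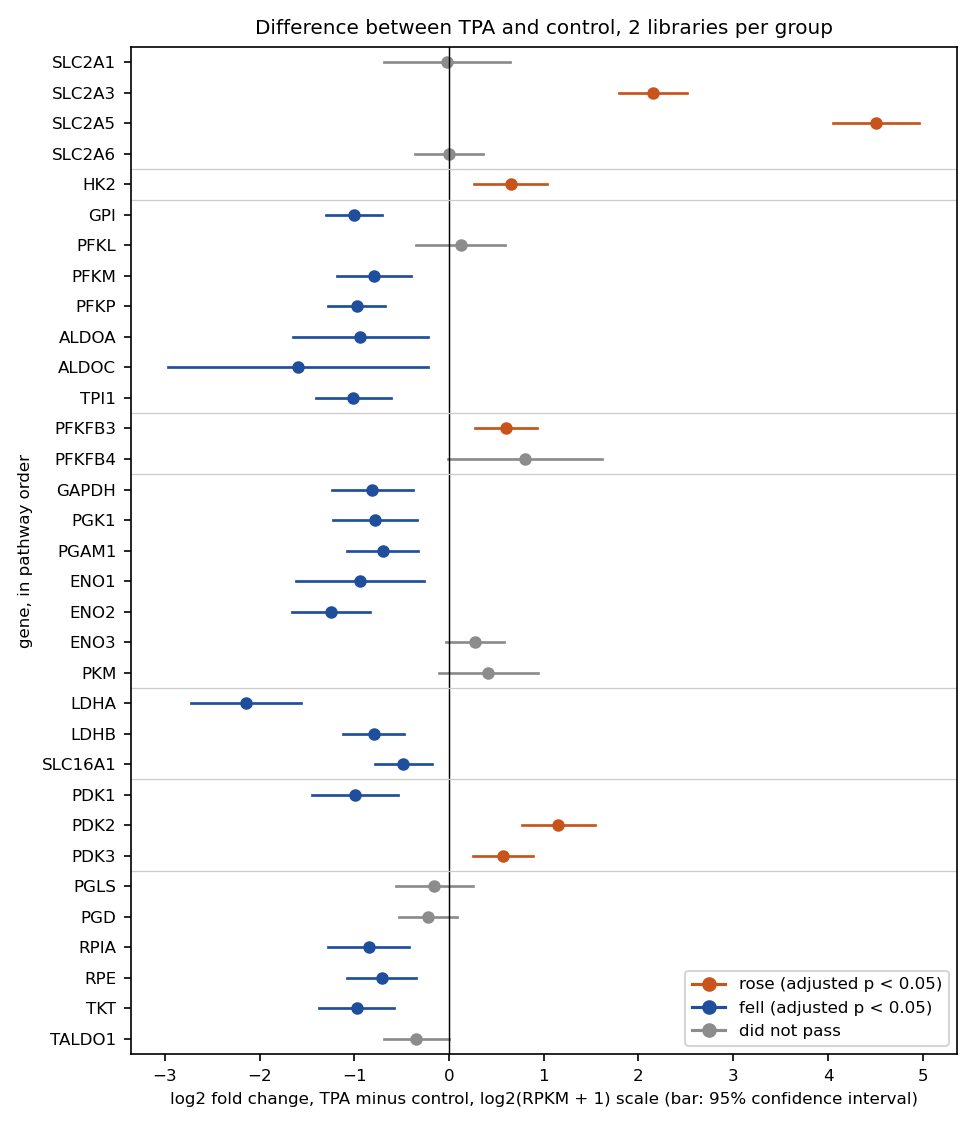
Log2 fold change, TPA minus control, on the log2(RPKM + 1) scale for the 33 members tested, in pathway order; points are estimates, bars are 95% confidence intervals from limma with 2 libraries per group, and colour marks rose, fell or did not pass. The trunk from GPI to ENO2 lies left of 0 apart from PFKL and the PFKFB genes, LDHA lies at -2.14 and SLC2A5 at 4.51.

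Lactate dehydrogenase converts pyruvate to lactate and back, with LDHA encoding the subunit favoured in glycolytic tissue and LDHB the subunit favoured in oxidative tissue. LDHA (11p15.1) had 660 and 467 RPKM in control and 160 and 98.1 RPKM with TPA, or 563 ± 137 against 129 ± 43.5 RPKM (mean ± SD, n = 2 per group). This was the largest fall of the members, 4.37-fold by mean RPKM, with a log2 fold change of -2.14 (SE 0.252, limma adjusted p = 1.93e-04). LDHB (12p12.1) had 1146 and 1293 RPKM in control and 685 and 720 RPKM with TPA (log2 fold change -0.79, SE 0.139, limma adjusted p = 0.00169). Both were lower without overlap, as were 41.0% of all genes tested. The 95% confidence intervals, from -2.72 to -1.56 for LDHA and from -1.11 to -0.47 for LDHB, did not meet. The difference between the genes was not tested. The share of LDHA in the summed level was 36.5% and 26.5% in control and 18.9% and 12.0% with TPA (exact permutation p = 0.33, the smallest possible). LDHB was therefore the higher of the pair in all 4 libraries. The LDHA value is listed under a non-coding transcript record, and whether it covers all transcripts of the gene is not given in the sources used here.

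Lactate leaves the cell through monocarboxylate carriers. SLC16A1, the gene of the carrier MCT1 (1p13.2), had 77.7 and 77.4 RPKM in control and 54.0 and 56.5 RPKM with TPA. It fell with little spread between replicates (log2 fold change -0.48, SE 0.129, limma adjusted p = 0.0128), and its call was lost without control replicate 1 (adjusted p = 0.109) or control replicate 2 (adjusted p = 0.105). SLC16A3, the gene of MCT4, which exports lactate from highly glycolytic cells, was listed at 0.032 and 0.011 RPKM in control and 0.022 and 0.023 RPKM with TPA.

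The promoters of 5 members are shown because their genes had the largest fall (LDHA), its partner isozyme (LDHB), the widest gap between replicates (ALDOC), a trunk enzyme that fell (PGK1) and the largest rise (SLC2A5). Each stretch is the 250 bases before the RefSeq start of transcription on build GRCh38.p14, read 5′ to 3′ along the gene; the expression values were made on hg19. Capitals mark CACGTG, the E-box that MYC and related factors bind, and ACGTG and GCGTG, the cores of the hypoxia response element, on either strand, so that the reverse complements CACGT and CACGC are in capitals too. LDHA is at chr11:18394313-18394562 (+ strand), LDHB at chr12:21657843-21658092 (- strand), ALDOC at chr17:28576896-28577145 (- strand), PGK1 at chrX:78103998-78104247 (+ strand) and SLC2A5 at chr1:9069636-9069885 (- strand).
LDHA: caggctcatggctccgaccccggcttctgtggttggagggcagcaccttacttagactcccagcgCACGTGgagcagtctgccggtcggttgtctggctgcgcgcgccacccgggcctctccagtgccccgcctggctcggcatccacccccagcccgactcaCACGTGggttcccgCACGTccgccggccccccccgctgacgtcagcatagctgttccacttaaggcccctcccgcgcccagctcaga
LDHB: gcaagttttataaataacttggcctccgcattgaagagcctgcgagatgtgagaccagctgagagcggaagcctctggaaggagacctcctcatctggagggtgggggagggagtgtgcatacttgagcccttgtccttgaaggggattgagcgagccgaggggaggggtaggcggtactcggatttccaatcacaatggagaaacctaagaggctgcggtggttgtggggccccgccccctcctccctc
ALDOC: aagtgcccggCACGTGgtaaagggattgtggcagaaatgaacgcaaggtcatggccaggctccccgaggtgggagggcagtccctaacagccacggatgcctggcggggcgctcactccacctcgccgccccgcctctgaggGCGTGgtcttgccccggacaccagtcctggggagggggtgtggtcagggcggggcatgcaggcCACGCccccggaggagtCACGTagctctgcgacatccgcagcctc
PGK1: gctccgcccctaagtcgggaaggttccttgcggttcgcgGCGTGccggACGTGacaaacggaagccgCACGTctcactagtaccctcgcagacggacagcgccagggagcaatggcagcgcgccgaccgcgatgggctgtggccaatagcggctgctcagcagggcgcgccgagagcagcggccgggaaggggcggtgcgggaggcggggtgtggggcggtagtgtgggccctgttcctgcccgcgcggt
SLC2A5: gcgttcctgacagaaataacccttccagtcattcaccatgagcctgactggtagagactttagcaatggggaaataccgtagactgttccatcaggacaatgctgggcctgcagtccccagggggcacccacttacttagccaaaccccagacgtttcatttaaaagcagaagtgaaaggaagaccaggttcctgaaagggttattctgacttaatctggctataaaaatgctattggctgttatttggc
The LDHA stretch held 2 E-boxes and 1 further ACGTG core, ALDOC held 1 E-box beside 1 further ACGTG and 2 GCGTG cores, and PGK1 held 2 ACGTG and 1 GCGTG core. LDHA has a second window, not printed, with no CACGTG or ACGTG and 1 GCGTG core; the one shown is that of the farthest upstream start. The LDHB and SLC2A5 stretches held none of these letters in this window. RefSeq windows were at hand for 34 of the 37 members, in 63 windows since some genes have several starts; those not matched were SLC2A3, PFKFB2 and SLC16A1. CACGTG occurred in 7 of the 63 windows (11.1%), against 6.345% of all 35116 promoter windows of the same length. ACGTG, which every CACGTG contains, occurred in 31.7% of the member windows against 18.5% of all, and GCGTG in 31.7% against 32.2%. The 7 genes with CACGTG were HK2, PFKFB3, PDK2, GAPDH, ALDOA, ALDOC and LDHA, of which 3 rose and 4 fell. HK2, PFKFB3, PDK2, ALDOA and LDHA also had windows without it. Of the members with windows but no CACGTG, 2 rose, 13 fell, 9 did not pass and 3 were not tested. Among all genes tested 28.4% rose and 29.8% fell, against 18.2% and 54.5% of the members. A link between CACGTG and the change with TPA was not tested. A match of letters is a description of the sequence and does not show that a factor binds there.

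The pyruvate dehydrogenase kinases, which switch off the entry of pyruvate into the mitochondria, changed in composition. PDK1 (2q31.1) had 22.4 and 14.8 RPKM in control and 9.18 and 8.15 RPKM with TPA, and fell with a log2 fold change of -0.99 (SE 0.194, limma adjusted p = 0.00296). PDK2 (17q21.33) had 2.99 and 2.28 RPKM in control and 6.21 and 7.995 RPKM with TPA, and rose with a log2 fold change of 1.16 (SE 0.165, limma adjusted p = 5.58e-04). PDK3 (Xp22.11) had 4.22 and 3.72 RPKM in control and 6.84 and 5.93 RPKM with TPA (log2 fold change 0.57, limma adjusted p = 0.00826). None of the 3 overlapped between groups, but over all genes tested 41.0% were lower without overlap and 38.8% higher. Without control replicate 2 the call of PDK3 was lost (log2 fold change 0.50). PDK1 made up 75.6% and 71.2% of the summed kinase level in control and 41.3% and 36.9% with TPA. The sum itself was 29.6 and 20.8 RPKM in control and 22.2 and 22.1 RPKM with TPA, so that both TPA libraries lay between the controls.

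Other genes act on the same step. Outside the members, 11 genes of pyruvate entry met the minimum level, of which 6 rose, 1 fell and 4 gave no call. The shares that rose and fell were 54.5% and 9.1%, against 28.4% and 29.8% of all genes tested. PDP1 and PDP2, the phosphatases that switch the complex back on, went from 5.27 and 5.16 to 18.9 and 16.4 RPKM and from 8.52 and 7.88 to 30.8 and 22.8 RPKM. Their log2 fold changes were both 1.58 (limma adjusted p = 3.28e-05 for PDP1 and 1.05e-04 for PDP2), a rise of 3.38-fold and 3.27-fold in mean RPKM. The subunit genes of the first enzyme of the complex, PDHA1 and PDHB, rose with log2 fold changes of 0.66 and 0.47, and DLAT, the gene of the second enzyme, fell from 31.7 and 38.1 to 16.4 and 18.4 RPKM. PC, which carboxylates pyruvate, rose from 5.96 and 5.49 to 12.3 and 11.7 RPKM, and the phosphatase regulator gene PDPR had a log2 fold change of 0.43 (limma adjusted p = 0.0238). DLD, PDHX and the pyruvate carrier genes MPC1 and MPC2 did not pass, with log2 fold changes of 0.05, -0.19, 0.40 and 0.06. The call of PDHA1 was lost without control replicate 1 (adjusted p = 0.0573), and those of PDHB and PDPR in 3 of the 4 fits that left out a library (adjusted p from 0.0554 to 0.239 for PDHB and from 0.0699 to 0.228 for PDPR) and with no filter on low values (adjusted p = 0.0656 and 0.0643). MPC1 passed after quantile normalization (adjusted p = 0.0245) and without control replicate 2 (log2 fold change 0.61, adjusted p = 0.0338), but its log2 fold change was 0.19 without control replicate 1 (adjusted p = 0.561) and 0.18 without TPA replicate 2 (adjusted p = 0.506).

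**Figure D5:**
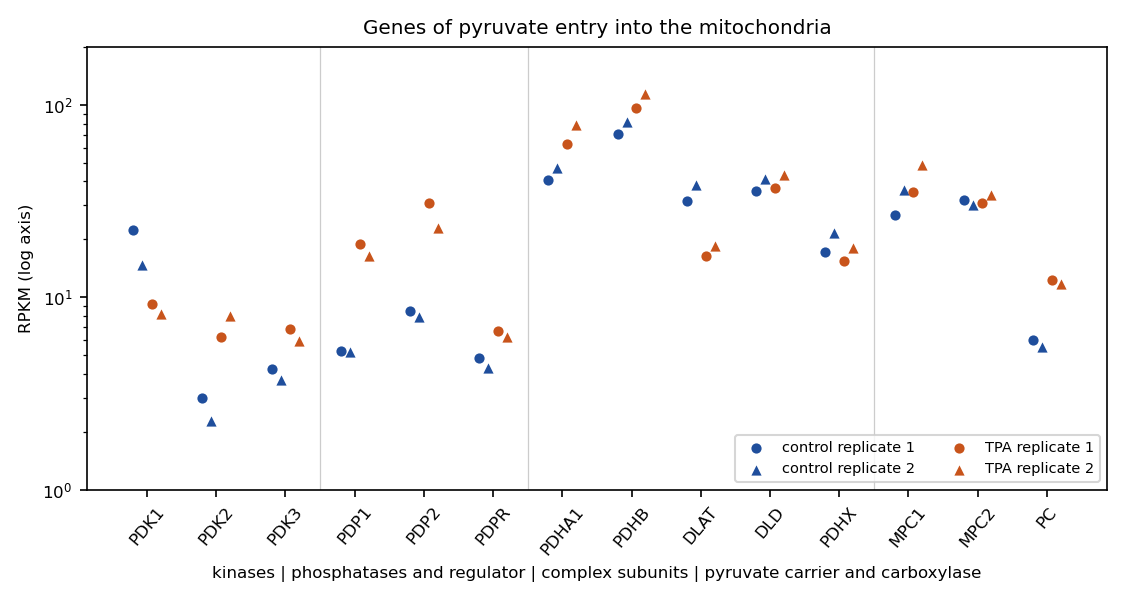
Level in RPKM, on a log axis, of the genes of pyruvate entry into the mitochondria in each library; blue marks control, orange marks TPA, circles replicate 1 and triangles replicate 2, and grey lines separate kinases, phosphatases, subunits, and carriers with the carboxylase. PDK1 and DLAT are lower with TPA, and PDK2, PDK3, PDP1, PDP2 and PC are higher, without overlap between groups.

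Of the 6 pentose phosphate genes tested, 3 fell, 0 rose and 3 did not pass. Over all genes tested 58.2% were called in either direction and 29.8% fell, so the 3 of 6 called here lay near the background. TKT, the transketolase that links the pathway back to glycolysis (3p21.1), had 312 and 264 RPKM in control and 166 and 128 RPKM with TPA (log2 fold change -0.97, SE 0.171, limma adjusted p = 0.00167). RPIA and RPE, the isomerase and epimerase that interconvert the pentose phosphates, went from 37.9 and 50.6 to 21.1 and 26.9 RPKM and from 18.9 and 23.0 to 11.2 and 13.6 RPKM. Their log2 fold changes were -0.85 and -0.71 (limma adjusted p = 0.00483 and 0.00538). TKT, RPIA and RPE were lower without overlap, as were 41.0% of all genes tested.

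The other members of this branch showed smaller differences. PGD, the second NADPH-forming enzyme, had 132 and 128 RPKM in control and 106 and 117 RPKM with TPA, with an interval of the log2 fold change from -0.53 to 0.09. TALDO1, the transaldolase gene, had 108 and 117 RPKM in control and 80.3 and 97.8 RPKM with TPA (log2 fold change -0.34, limma adjusted p = 0.0814). Both genes were lower without overlap, as were 41.0% of all genes tested, but neither passed. TALDO1 passed without TPA replicate 2 (adjusted p = 0.0359) and after median-of-ratios scaling (adjusted p = 0.0184). The log2 fold change of TALDO1 was -0.20 without TPA replicate 1 (adjusted p = 0.286). PGLS, the lactonase gene, had 45.4 and 33.2 RPKM in control and 37.2 and 32.4 RPKM with TPA, and its groups overlapped (interval -0.56 to 0.25).

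Other genes of glucose and pyruvate metabolism were counted for comparison. Of 65 symbols listed, 62 were in the table and 41 reached the minimum level. The symbols not found, BRP44L, BRP44 and C12orf5, are earlier names of MPC1, MPC2 and TIGAR, which were listed and found. Of these 41, 20 rose (48.8%, against 28.4% of all genes tested), 10 fell (24.4%, against 29.8%) and 11 gave no call. The median log2 fold change of these 41 genes was 0.40. Without control replicate 2, 6 of them fell. TXNIP, whose product lowers glucose uptake and whose gene responds to glucose, had 15.3 and 6.54 RPKM in control and 152 and 200 RPKM with TPA. It had the smallest p of these genes, with a log2 fold change of 3.98 (SE 0.323, limma adjusted p = 2.54e-05). Its relative ARRDC4 rose from 1.18 and 0.685 to 5.14 and 6.83 RPKM. ARRDC4 was under 1 RPKM in control replicate 2, and RBKS, which also rose, was under 1 RPKM in control replicate 1. Both needed the TPA libraries to meet the minimum level. The 20 that rose include PYGM and SLC16A8, which were under 1 RPKM in both controls and met that level only through the TPA libraries. A difference in those genes was bound to appear once they were tested. Of the other glucose genes that fell, PYGL, a glycogen phosphorylase gene, had the smallest p (log2 fold change -1.67, limma adjusted p = 1.55e-04). PYGL had 6.75 and 8.09 RPKM in control and 1.21 and 2.15 RPKM with TPA. The phosphorylase gene PYGB rose from 21.2 and 18.1 to 39.4 and 32.7 RPKM (limma adjusted p = 0.00203), and PYGM from 0.054 and 0.083 to 2.01 and 3.60 RPKM. GYG1, the primer protein of glycogen synthesis, fell by 0.98 on the log2 scale. Among 12 tested genes of glycogen and gluconeogenesis, 4 rose, 5 fell and 3 did not pass, so that 33.3% rose and 41.7% fell, near the 28.4% and 29.8% of all genes tested.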

How the data were processed

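RNA-seq of 2 control and 2 TPA libraries was used, grouped by the sample titles. The authors deposited 1 value in RPKM per gene and library, per the file headers. CASAVA 1.8, Bowtie 1.12, TopHat, SAMtools and HOMER and the build hg19 are named in the submitters' processing notes, without roles. Strand use, total reads and handling of reads with several positions are not given in the sources used here, so no counting interval is given. Depth relative to control replicate 1 was read from the steps between values of 0.03 to 0.15 RPKM.

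Genes reaching 1 RPKM in 2 or more libraries were kept, and log2(RPKM + 1) was fitted with limma 3.58.1 in R 4.3.3 (empirical Bayes with a mean-variance trend, two-sided, Benjamini-Hochberg adjusted over 12159 genes, 5.88 prior and 2 residual degrees of freedom). Folds on this scale understate changes of low genes. The script was tested on simulated data. Figures were drawn with matplotlib 3.10.9. No label says that replicates were separate cultures, so p-values measure only the spread between these libraries, which may be technical.

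The members and gene lists were chosen with earlier results of these data known. One item of the marker lists is not reported here. All members are named; per-library values were to be given for called members with a log2 fold change of at least 1 in size and for a fixed set of 18 genes. Of the other glucose genes, the 3 with the smallest p in each direction were to be named (TXNIP, PDP1 and ARRDC4, and PYGL, DLAT and GYG1). The remaining genes of pyruvate entry, SLC2A14, SLC16A8, PYGB, PYGM, RBKS and CSF1R were named after their values were seen. CD79A, CD79B and MME were picked out of the pre-B list in the same way. Alternatives were 2 other pseudocounts, 2 other filters, 2 scalings, 2 variance models, a replicate block and leaving out each library.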

Additional observations from a re-analysis of the deposited data

How the results depend on the processing

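All 24 called members kept their direction in the 13 other settings, and 14 of them kept their call in every one. Between 5 and 8 members rose and between 13 and 19 fell in the 9 settings with all libraries, and the lowest counts came with no filter on low values, where 37 members were tested. Calls lost in settings with all libraries were those of HK2, ALDOA, ALDOC, GAPDH, PGK1 and ENO1. With 1 library left out, between 3 and 8 members rose and between 14 and 18 fell, and between 16 and 18 of the other glucose genes rose and between 6 and 8 fell; the 3 members that rose without control replicate 2 were SLC2A3, SLC2A5 and PDK2. The lone library of a group is assumed there to vary like the other group, and without either control the prior degrees of freedom were infinite, so those p-values cannot be set against the others. The share of SLC2A5 differed by 42.4 to 47.8 percentage points, that of PFKL by 11.9 to 22.9, that of LDHA by -21.1 to -11.1 and that of PDK1 by -36.5 to -32.0.

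Signs changed in SLC2A1, SLC2A6, PFKL, PGLS, MPC2 and DLD, none of which passed in the analysis reported; the cause was not tested. After quantile normalization the log2 fold change was 0.0029 for SLC2A1 and 0.0085 for SLC2A6, which had 0.0004003 with a pseudocount of 0.1. With 1 library left out it ran from -0.49 to 0.45 for SLC2A1, from -0.18 to 0.17 for SLC2A6, from -0.19 to 0.44 for PFKL, from -0.38 to 0.062 for PGLS, from -0.0081 to 0.13 for MPC2 and from -0.059 to 0.16 for DLD. The labels do not say that a replicate number marks shared material. The deviations of same-numbered libraries had r = 0.361 over all genes tested and 0.796 over the members, across genes, which are not independent. With the replicate number as a block, 8 members rose and 19 fell, and 21 of the other glucose genes rose and 10 fell. PFKFB4, PKM, TALDO1 and, outside the members, MPC1 (limma adjusted p = 0.00414) were added to the calls. Calls grew over all 12159 genes tested too, with 3946 rising and 4288 falling, against 3454 and 3621 without the block. The scalings moved the median of all genes by less than 0.1.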
